A study of Mus musculus with 10 samples.

Results

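The enzymes that make, spend and recycle glutathione, and those that clear peroxides and superoxide, were followed across 5 mouse cell cultures on Affymetrix gene arrays. The genes taken were those whose symbol begins with Gcl, Gpx, Prdx, Sod, Srxn or Txn, or with Gst followed by a, cd, k, m, o, p, t or z, together with Cat, Gsr, Gss, Hmox1 and Nqo1. They came to 62 of the 19938 genes with a probe set of their own, and are called the antioxidant genes below. The rule reads symbols only and uses no measured value. By role they were 4 genes of glutathione synthesis and recycling, 20 glutathione S-transferases, 8 glutathione peroxidases, 5 peroxiredoxins with sulfiredoxin, 6 genes of the thioredoxin system proper, 12 further proteins with a thioredoxin fold, 3 superoxide dismutases with catalase, and Nqo1 with Hmox1.

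Glutathione is a tripeptide that holds its reducing power in the thiol of a cysteine. It is made in a rate-limiting step by glutamate-cysteine ligase (Gclc and Gclm) and a finishing step by glutathione synthetase (Gss), spent by peroxidases (Gpx) and by transferases that couple it to reactive compounds (Gst), and regenerated by glutathione reductase (Gsr) with NADPH. Peroxiredoxins use the separate thioredoxin system for the same kind of work, and superoxide dismutases feed hydrogen peroxide to both and to catalase. Many of these genes are known targets of the transcription factor Nrf2 (gene Nfe2l2), which is held down by Keap1 and binds antioxidant response elements in promoters.

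The series starts at embryonic stem (ES) cells and ends at neural ones, with 2 biological replicates and 1 array per replicate in each. mESC were cells of the R1 line, of 129 origin, kept on growth-arrested embryonic fibroblasts in 15% serum with Lif at 1000 U/ml and 0.1 mM 2-mercaptoethanol, which is itself a thiol reductant. p-NSC_L were primary spheres of primitive neural stem cells that ES cells form in serum-free N2 medium with Lif at 1000 U/ml. p-NSC_LF were primitive cells replated with Lif at 1000 U/ml, FGF at 10 ng/ml and heparin at 2 µg/ml. d-NSC, the definitive stage, came from primitive cells moved to EGF and FGF at 20 ng/ml each, heparin at 2 µg/ml, and both N2 and B27, without Lif. CNS-NSC, labelled WT (wild type), were neural stem cells from the forebrain of E11.5 embryos of the ICR strain. They were grown in N2 with the same EGF, FGF and heparin. The d-NSC and CNS-NSC cultures thus differed in strain and in the B27 supplement as well as in origin. Serum, feeders, passage, growth factors and supplements changed together from culture to culture, and their parts cannot be told apart.

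Levels are log2 intensities, differences are the culture named first minus the second on the log2 scale, ± SE from limma with n = 2 arrays per culture, and the words rose and fell are kept for an adjusted p by limma under 0.05 over all 19938 genes. Levels of different genes come from different probes and are not set against each other. Of the 8 ES cell markers, all fell in d-NSC against p-NSC_LF, where 19.3% of all genes fell. Their mean level was 10.05 to 10.10 in d-NSC, 12.55 to 12.64 in p-NSC_LF and 7.07 to 7.12 in CNS-NSC. The 9 neural stem cell markers averaged 11.29 on each d-NSC array, 8.65 to 8.71 in p-NSC_LF and 11.51 to 11.64 in CNS-NSC. The ES cell markers averaged 12.43 to 12.52 in mESC and the neural stem cell markers 8.72 to 8.79, so the primitive cultures resembled mESC in both lists although they are labelled neural. Hprt, a purine salvage enzyme, read 6.99 and 6.75 on the mESC arrays, against at least 10.45 on the other 8, although the derived cultures are labelled as coming from ES cells. Both arrays labelled mESC thus stand apart in this gene, its part in other differences was not tested, and every comparison with mESC rests on these arrays. Whether the mESC and the derived cultures share a line was not tested.

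The antioxidant genes were called more often over the cultures than genes in general, and they were also brighter. A limma F-test over the 5 cultures called 54 of the 62, or 87.1%, against 57.7% of all genes. Their group means spanned a median of 0.95, against 0.59 over all genes, and the widest spans were 3.78 for Txnip, 3.59 for Nqo1, 3.57 for Gsta4 and 3.51 for Gpx8. The median antioxidant gene had a mean level of 9.38, against 8.10 for the median gene. Among the brighter 50% of genes the F-test called 46 of 48 antioxidant genes and 8373 of all 9969, so the background there was far higher. The 8 not called were Gsto2, Gstt4, Gpx5, Gpx7, Txndc8, Txndc9, Txnl4a and Txnrd3. Gpx5, an epididymal peroxidase, and Txndc8, a sperm thioredoxin, averaged 5.55 and 6.07, under the lower quartile of the arrays (6.39 to 6.49).

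Each culture had its own set of genes at the top or the bottom. By mean level, 21 antioxidant genes were highest in p-NSC_LF, 20 in CNS-NSC, 11 in mESC, 8 in d-NSC and 2 in p-NSC_L. Over all genes 16.5% were highest in p-NSC_LF, 28.6% in CNS-NSC, 17.1% in mESC, 22.1% in d-NSC and 15.7% in p-NSC_L. Both p-NSC_LF arrays lay above the other 8 arrays for 12 antioxidant genes, or 19.35% (background 5.01%). The 12 were Nqo1, Gstm2, Gstm3, Gstm6, Gsto1, Gsto2, Gpx2, Gpx6, Gsr, Gss, Srxn1 and, narrowly, Cat. Both d-NSC arrays lay below the other 8 for 13, or 20.97% (background 9.89%). These were Gclc, Gclm, Srxn1, Nqo1, Gstm1, Gstm3, Gstm6, Cat, Sod2, Txn1, Txnrd1, Txndc17 and Txnl1. For Gstm3 this held on its brighter probe set only. The other read 8.18 and 8.72 in d-NSC, above the 7.13 and 7.61 of CNS-NSC. Both d-NSC arrays lay above all others for 5, or 8.06% (background 12.5%), which were Gpx3, Gstcd, Gstz1, Txnip and Txnrd2. Both CNS-NSC arrays lay above all others for 16, or 25.81% (background 16.2%), and below them for 11, or 17.74% (background 14.9%). Both p-NSC_L arrays lay above all others for 0 antioxidant genes (background 4.39%) and below them for 5, or 8.06% (background 3.71%). The 5 were Gstcd, Gstp1, Gpx3, Gpx8 and Prdx4. Probe sets shared by Gstp1 and Gstp2, which were not used, did not place p-NSC_L lowest. They read 9.86 to 10.19 in p-NSC_L and 9.38 to 9.45 in d-NSC. Both p-NSC_LF arrays lay below all others for 3, or 4.84% (background 3.21%). Both mESC arrays lay above all others for 7, or 11.29% (background 8.10%), and below them for 5, or 8.06% (background 7.19%). These counts carry no test. In such bulk samples fewer cells of a type and less RNA per cell cannot be told apart.

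**Figure D1:**
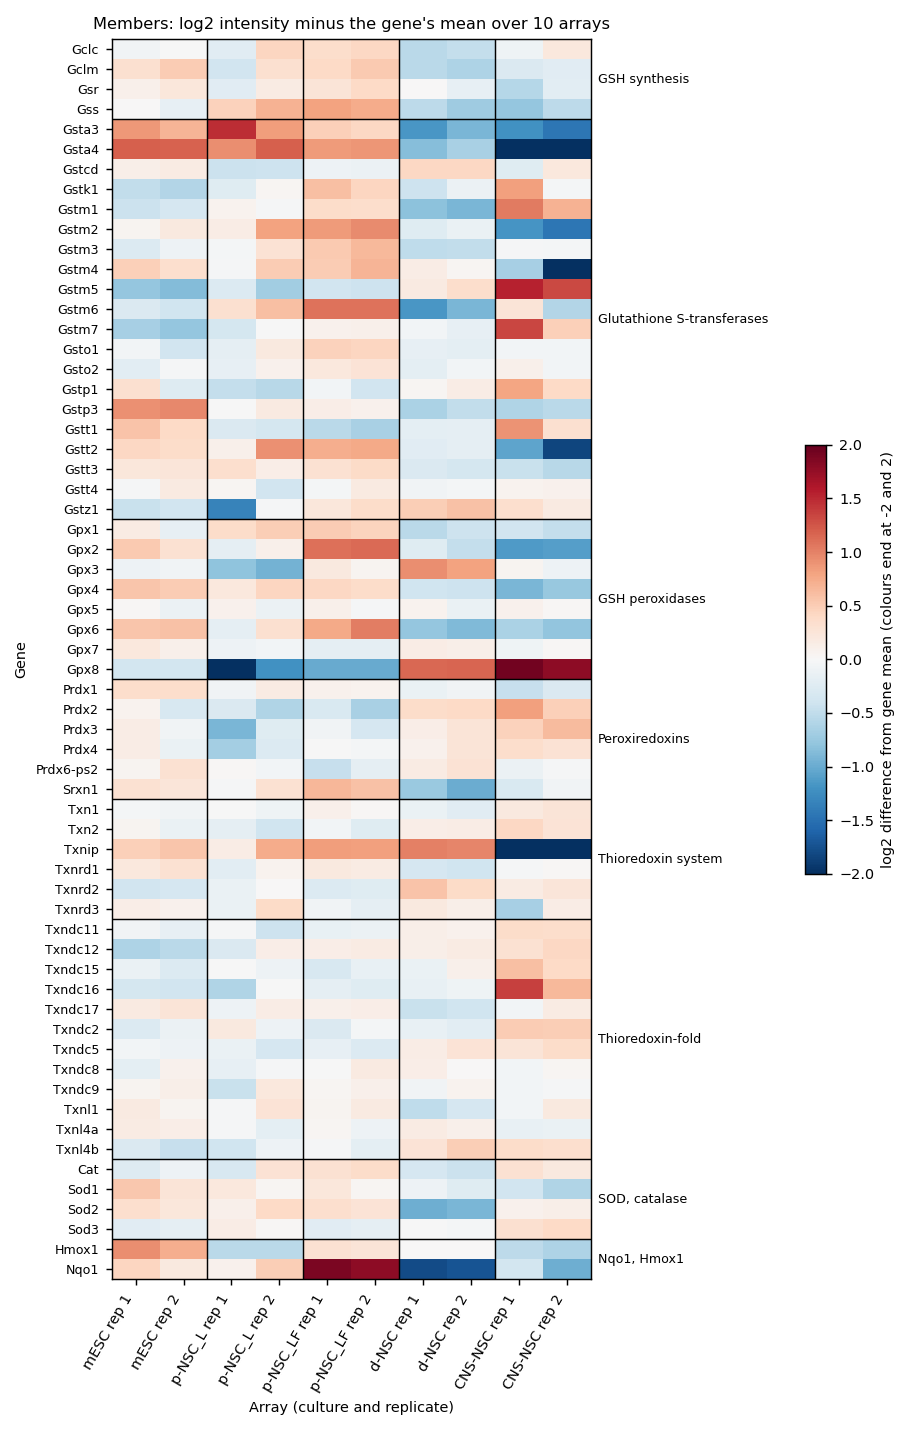
Heat map of the 62 antioxidant genes (rows, by role) on the 10 arrays (columns), coloured by log2 intensity minus the mean of the gene over all arrays, with colours ending at -2 and 2. Nqo1, Gstm6 and Gpx2 are red in p-NSC_LF, Nqo1, Srxn1, Sod2, Gclc and Gclm are blue in d-NSC, and Gsta4 and Txnip are darkest blue in CNS-NSC.

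The antioxidant response element is known as the DNA site of Nrf2, and its core was looked for in promoters because several of its textbook target genes lie lowest in d-NSC. The core searched was TGACNNNGC on either strand, in RefSeq windows of 250 bases before to 50 after a gene start (GRCm38.p6). Windows were matched for 53 of the 62 antioxidant genes. The excerpts below are from 6 of the 11 genes with a match and include the synthesis subunit Gclm, the repair enzyme Srxn1, the reductase Txnrd1 and the transferase Gsta3, which all fell in d-NSC against p-NSC_LF, the transferase Gstm5, which rose, and Prdx1, which was not called. Each reads 5′ to 3′ along the gene's strand, and capitals mark the match, which is the reverse complement of the core in Gclm, Srxn1, Txnrd1 and Prdx1.
Gclm, chr3:122245383-122245471, + strand: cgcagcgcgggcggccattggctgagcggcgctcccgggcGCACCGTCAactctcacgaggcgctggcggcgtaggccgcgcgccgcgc
Srxn1, chr2:152105512-152105573, + strand: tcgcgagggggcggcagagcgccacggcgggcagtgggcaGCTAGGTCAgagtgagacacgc
Txnrd1, chr10:82859074-82859162, + strand: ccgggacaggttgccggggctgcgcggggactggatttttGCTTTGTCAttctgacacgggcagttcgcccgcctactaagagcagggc
Gsta3, chr1:21240424-21240512, + strand: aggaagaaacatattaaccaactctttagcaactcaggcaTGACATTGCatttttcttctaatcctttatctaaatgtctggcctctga
Gstm5, chr3:107895772-107895860, + strand: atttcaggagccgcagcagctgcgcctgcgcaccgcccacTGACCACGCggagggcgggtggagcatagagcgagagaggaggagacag
Prdx1, chr4:116685426-116685514, + strand: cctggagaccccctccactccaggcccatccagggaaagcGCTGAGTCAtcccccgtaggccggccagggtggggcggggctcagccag
The match in Prdx1 overlaps TGACTCA, the AP-1 site, and those of the other 10 genes do not. A match was present in 15.5% of the 71 windows of antioxidant genes and in 12.4% of all 32851 windows, and in 20.8% of the 53 genes against 14.0% of all 27025. TGACTCA was present in 5.63% of the windows of antioxidant genes and 5.20% of all windows. In d-NSC against p-NSC_LF 4 of the 11 genes with a match fell (Gclm, Gsta3, Srxn1, Txnrd1), 2 rose (Gstm5, Txndc5) and 5 were not called (Gstm7, Prdx1, Sod1, Txndc11, Txndc2). The excerpts above hold all of those that fell but not all of the others. Of the 42 genes whose windows held no match, 18 fell, 7 rose and 17 were not called. Over all genes 19.3% fell and 19.3% rose. Prdx1 counts as not called on its brighter probe set (difference -0.18), while its other probe set differed by -0.56. A match describes these letters only.

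**Figure D2:**
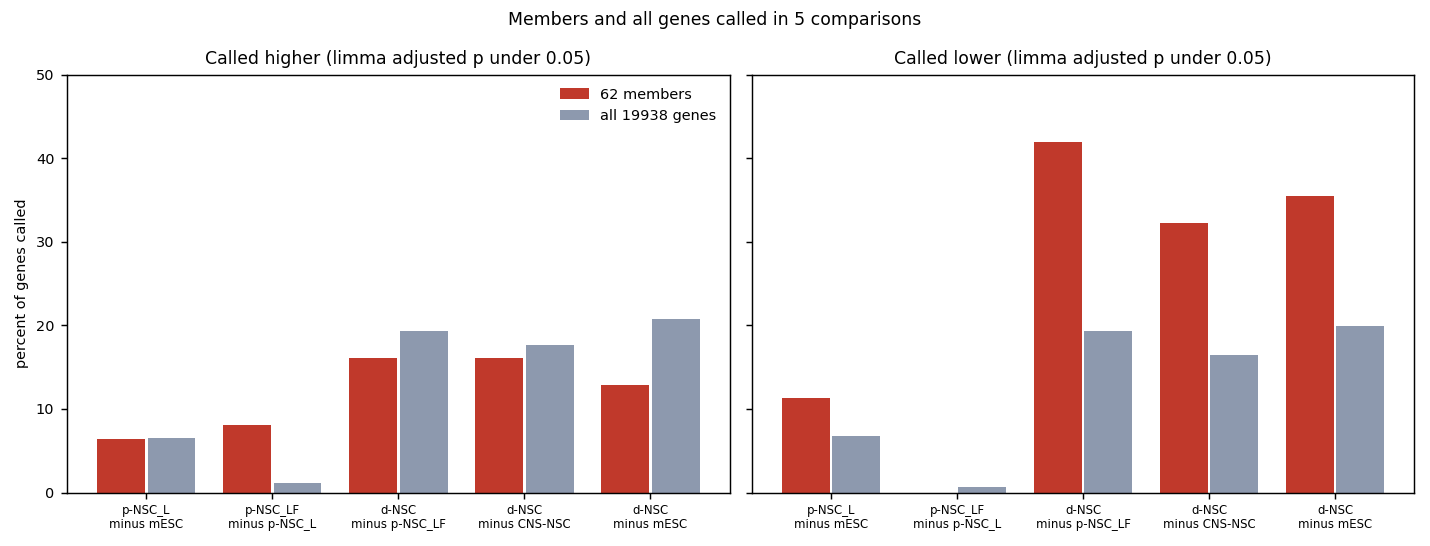
Percent of the 62 antioxidant genes (red) and of all 19938 genes (grey) called higher (left panel) or lower (right panel) in 5 comparisons, by limma at an adjusted p under 0.05. Lower calls take 41.9% of antioxidant genes and 19.3% of all genes in d-NSC minus p-NSC_LF, while higher calls take 16.1% and 19.3%.

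The first step, p-NSC_L against mESC, sets spheres in serum-free medium against ES cells on feeders in serum. Of the antioxidant genes 4 rose and 7 fell by limma, against 6.56% and 6.79% of all genes (13.4% in either direction), so that 6.45% rose and 11.3% fell. Hmox1, which degrades heme, fell, and so did the secreted peroxidase Gpx3 and the endoplasmic reticulum peroxidase Gpx8, while the synthetase Gss rose. Among the 48 antioxidant genes in the brighter 50% of genes the same limma test called 8.33% higher and 14.6% lower, against 13.0% and 13.5% of those genes.

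Hmox1 read 9.55 and 9.55 in p-NSC_L against 11.02 and 10.82 in mESC. It fell by 1.37 ± 0.10 (adjusted p = 6.5e-05 by limma), the largest fall, and the arrays did not overlap. The quinone reductase Nqo1 read 8.93 and 9.33 in p-NSC_L and 9.28 and 9.03 in mESC, which overlap.

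Gss read 9.75 and 9.98 in p-NSC_L against 9.30 and 9.13 in mESC and rose by 0.65 ± 0.13 (adjusted p = 0.010). Without mESC replicate 2 the rise was 0.57 and the adjusted p 0.089 by limma. Gclc, Gclm and Gsr differed by 0.14 ± 0.19, -0.44 ± 0.19 and -0.19 ± 0.16 and were not called.

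Of the transferases Gstp3 fell by 0.85 ± 0.11 (adjusted p = 0.00092 by limma), Gstt1 by 0.80 ± 0.17 (0.011) and Gstcd by 0.57 ± 0.14 (0.022), and Gstm6 rose by 0.81 ± 0.23 (0.045). The call of Gstt1 was lost without mESC replicate 1 (difference -0.72, adjusted p = 0.095), that of Gstcd without either mESC array or p-NSC_L replicate 1 (differences -0.59 to -0.55, adjusted p 0.068 to 0.12), and that of Gstm6 without any 1 of the 8 mESC, p-NSC_L, p-NSC_LF and d-NSC arrays (0.66 to 0.95, adjusted p 0.068 to 0.20).

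Of the peroxidases Gpx3 read 8.32 and 8.18 in p-NSC_L against 9.02 and 9.05 in mESC and fell by 0.79 ± 0.11 (adjusted p = 0.0014 by limma). Gpx8 read 7.57 and 8.44 in p-NSC_L against 9.28 and 9.28 in mESC, and fell by 1.27 ± 0.22 (adjusted p = 0.0043). The p-NSC_L arrays of Gpx8 lay well apart from each other, and both were below both mESC arrays. Gpx1, the main cytosolic enzyme, rose by 0.43 ± 0.12 (adjusted p = 0.046), Gpx2 fell by 0.46 ± 0.13 (0.046) and the endoplasmic reticulum protein Txndc12 rose by 0.50 ± 0.13 (0.037). Each of these 3 calls was lost on leaving out any 1 of 7 arrays, adjusted p reaching 0.31 for Gpx1, 0.28 for Gpx2 and 0.19 for Txndc12. For all 3 these include mESC replicate 2 and each p-NSC_LF and d-NSC array. No measured peroxiredoxin, superoxide dismutase, thioredoxin or reductase was called in this step, and neither was Cat, Srxn1 or Txnip. Prdx5 and Prdx6 had no probe set of their own and are not among the antioxidant genes.

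Around the family, Glrx, a glutaredoxin that strips glutathione off proteins, read 10.41 and 10.36 in p-NSC_L against 9.09 and 9.16 in mESC and rose by 1.26 ± 0.11 (adjusted p = 0.00015 by limma). Of 20 genes of cystine supply and glutathione turnover 5 rose and 3 fell, of 14 of NADPH supply 4 rose and 1 fell, and of 19 Nrf2 targets outside the family 1 rose and 1 fell. The lists overlap here and below. The Nrf2 targets share Slc7a11 with the cystine list and Pgd, Me1 and Idh1 with the NADPH list.

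The second step replated the cells and added FGF and heparin to Lif, and the parts of these changes cannot be told apart. In it 5 antioxidant genes rose in p-NSC_LF against p-NSC_L and 0 fell, or 8.06% and 0.00%. Over all genes limma called 1.10% higher and 0.677% lower (1.78% in all). In the brighter 50% of genes 8.33% of antioxidant genes rose and 0.00% fell, against 2.34% and 1.58% of those genes. Nqo1 and Hmox1 rose, as did the peroxidases Gpx2, Gpx3 and Gpx6. Nqo1 read 10.72 and 10.64 in p-NSC_LF against 8.93 and 9.33 in p-NSC_L and rose by 1.55 ± 0.20 (adjusted p = 0.0048), which is 2.92-fold. Without p-NSC_LF replicate 1 the rise was 1.51 and the adjusted p 0.065 by limma.

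Hmox1 read 10.39 and 10.35 in p-NSC_LF against 9.55 and 9.55 in p-NSC_L and rose by 0.82 ± 0.10 (adjusted p = 0.0047 by limma), which left it below both mESC arrays. Its call was lost without p-NSC_LF replicate 1 (0.80, adjusted p = 0.075) or replicate 2 (0.84, adjusted p = 0.053). Gpx2, a peroxidase known from the gut lining, read 10.22 and 10.25 in p-NSC_LF against 8.94 and 9.22 in p-NSC_L and rose by 1.15 ± 0.13 (adjusted p = 0.0027). Gpx3 read 9.33 and 9.19 in p-NSC_LF against 8.32 and 8.18 in p-NSC_L and rose by 1.01 ± 0.11 (adjusted p = 0.0021). For both genes the calls held in every setting tried, and the arrays did not overlap. Gpx6, known from olfactory epithelium, rose by 0.82 ± 0.16 (adjusted p = 0.037), a call lost on leaving out p-NSC_L replicate 1 or any 1 of the mESC, p-NSC_LF and d-NSC arrays (0.56 to 0.95, adjusted p 0.074 to 0.29).

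Outside the family, Chac1, which breaks glutathione down, read 10.21 and 10.11 in p-NSC_LF against 8.88 and 9.31 in p-NSC_L and rose by 1.06 ± 0.17 (adjusted p = 0.017 by limma). Its call was lost without p-NSC_L replicate 1 or either p-NSC_LF array (0.85 to 1.12, adjusted p 0.057 to 0.17). It was 1 of 2 genes of cystine supply and glutathione turnover that rose of 20 measured, none having fallen, and 1 of 19 Nrf2 targets outside the family rose. These calls took 10.0% and 5.26% of the lists, against 1.78% of all genes.

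The p-NSC_L replicates differed in the antioxidant genes more than in genes at large, which bears on both of these steps. Replicate 2 was the higher in 42 of the 62, or 67.7%, against 41.0% of all genes, by a median of 0.25 against -0.06. It was also the nearer to the p-NSC_LF mean in 44 of the 62, or 71.0%, against 50.8% of all genes. The mean level of 13 feeder fibroblast markers was 7.90 and 8.12 on the p-NSC_L arrays, against 7.41 and 7.45 on the p-NSC_LF arrays and 7.27 and 7.32 on the mESC arrays, and its part was not tested. Without p-NSC_L replicate 2, 18 antioxidant genes were called in p-NSC_LF against p-NSC_L, 17 higher and 1 lower, in place of 5, while the calls over all 19938 genes numbered 826 in place of 355. Without the same array 19 were called in p-NSC_L against mESC, 4 higher and 15 lower, in place of 11, and 3290 over all genes in place of 2662. Other arrays lowered the counts. In p-NSC_LF against p-NSC_L 2 antioxidant genes and 48 of all genes were called without p-NSC_LF replicate 1, and 3 and 70 without replicate 2. In p-NSC_L against mESC 6 antioxidant genes were called without either mESC array (1102 of all genes without replicate 1 and 1205 without replicate 2), and 7 without any 1 of the p-NSC_LF and d-NSC arrays.

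The step to definitive cells, d-NSC against p-NSC_LF, was the one at which the antioxidant genes fell most. Of the 62, 10 rose and 26 fell, where 19.3% of all genes rose and 19.3% fell (38.6% in all), so that 16.1% of the antioxidant genes rose and 41.9% fell. Their median difference was -0.22, against -0.01 over all genes. Of the 4 genes of glutathione synthesis and recycling 3 fell, of the 20 transferases 12 fell and 2 rose, and Nqo1 fell furthest of all. Of the peroxidases 4 fell and 3 rose, and of the peroxiredoxins and sulfiredoxin 1 fell and 2 rose. Among the 48 antioxidant genes in the brighter 50% of genes 47.9% fell and 14.6% rose by limma, against 31.3% and 27.4% of those 9969 genes.

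Nqo1, which reduces quinones and is the textbook readout of Nrf2, read 7.05 and 7.12 in d-NSC against 10.72 and 10.64 in p-NSC_LF. It fell by 3.59 ± 0.20 (adjusted p = 4.5e-07 by limma), which is 12.1-fold, and both d-NSC arrays lay below every other array. Hmox1 read 10.10 and 10.10 in d-NSC against 10.39 and 10.35 in p-NSC_LF, a difference of -0.27 ± 0.10 that was not called (adjusted p = 0.061). Without either p-NSC_L array it passed by limma at an adjusted p of 0.049.

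Of the 4 genes of glutathione synthesis and recycling 3 fell. Gss read 8.76 and 8.58 in d-NSC against 10.10 and 10.03 in p-NSC_LF and fell by 1.40 ± 0.13 (adjusted p = 1.8e-05 by limma). Gclm read 10.57 and 10.49 in d-NSC against 11.498 and 11.64 in p-NSC_LF and fell by 1.04 ± 0.19 (adjusted p = 0.0015). Gclc, the catalytic subunit, read 10.61 and 10.67 in d-NSC against 11.497 and 11.55 in p-NSC_LF and fell by 0.89 ± 0.19 (adjusted p = 0.0034). In each of these 3 genes both d-NSC arrays lay below both p-NSC_LF arrays. Gsr, which regenerates glutathione, read 11.35 and 11.18 in d-NSC against 11.61 and 11.74 in p-NSC_LF, and its difference of -0.41 ± 0.16 was not called (adjusted p = 0.068).

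The transferases couple glutathione to reactive compounds, and the mu, alpha, theta and omega classes each had members that fell. Gstm6 fell by 2.13 ± 0.23 (adjusted p = 4.5e-05 by limma) and Gsta4, which clears the lipid peroxidation product 4-hydroxynonenal, by 1.62 ± 0.17 (3.6e-05). Gsta4 read 10.92 and 11.13 in d-NSC against 12.63 and 12.66 in p-NSC_LF, with no overlap. Gsta3 read 6.23 and 6.47 in d-NSC against 7.87 and 7.80 in p-NSC_LF and fell by 1.49 ± 0.19 (adjusted p = 0.00016 by limma). There d-NSC lay near the lower quartile of the arrays, where the size of a difference is uncertain. The same holds for Gstm6 (6.46 and 6.72 in d-NSC), Gstp3 (6.48 and 6.62) and Gpx6 (6.48 and 6.37). Gstm1 fell by 1.23 ± 0.12, Gstm2 by 1.09 ± 0.19, Gstm3 by 1.08 ± 0.13, Gstt2 by 0.95 ± 0.27, Gstk1 by 0.77 ± 0.24, Gstp3 by 0.67 ± 0.11, Gstt3 by 0.66 ± 0.11, Gsto1 by 0.63 ± 0.15 and Gsto2 by 0.37 ± 0.13. Gstm5 went the other way and rose by 0.67 ± 0.15 (adjusted p = 0.0043), and Gstcd rose by 0.52 ± 0.14 (0.012). The mu class genes are related genes on chromosome 3, and how far their probe sets read each other is uncertain.

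The peroxidases moved in both directions. Gpx2 read 8.88 and 8.64 in d-NSC against 10.22 and 10.25 in p-NSC_LF and fell by 1.47 ± 0.13 (adjusted p = 1.2e-05 by limma). Gpx6 fell by 1.71 ± 0.16, Gpx1 by 0.96 ± 0.12 and Gpx4, which guards membranes from lipid peroxides, by 0.80 ± 0.11 (adjusted p = 0.00021). Gpx8, of the endoplasmic reticulum, read 10.79 and 10.81 in d-NSC against 8.64 and 8.64 in p-NSC_LF and rose by 2.16 ± 0.22 (adjusted p = 2.7e-05), which is 4.48-fold. Gpx3, the secreted form, read 10.06 and 9.93 in d-NSC against 9.33 and 9.19 in p-NSC_LF and rose by 0.73 ± 0.11 (adjusted p = 0.00040), and Gpx7, also of the endoplasmic reticulum, rose by 0.31 ± 0.10 (0.026). Gpx5 was not called.

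Among the peroxiredoxins, which take their electrons from thioredoxin, Prdx2 read 12.62 and 12.64 in d-NSC against 11.95 and 11.61 in p-NSC_LF and rose by 0.85 ± 0.18 (adjusted p = 0.0037 by limma). A second probe set of Prdx2 gave 0.85 as well. Prdx6-ps2, listed as a pseudogene copy, rose by 0.55 ± 0.13, and Prdx1, Prdx3 and Prdx4 were not called. Prdx1 had probe sets with differences of -0.18 and -0.56. Srxn1, which reduces over-oxidised peroxiredoxins, read 8.51 and 8.25 in d-NSC against 9.91 and 9.83 in p-NSC_LF and fell 2.82-fold (SE 0.14 on the log2 scale, adjusted p = 1.7e-05).

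In the thioredoxin system the cytosolic reductase Txnrd1 fell by 0.54 ± 0.11 (adjusted p = 0.0033 by limma) and the mitochondrial reductase Txnrd2 rose by 0.74 ± 0.11 (0.00030). Txnrd1 read 10.23 and 10.17 in d-NSC against 10.75 and 10.74 in p-NSC_LF, and Txnrd2 read 8.51 and 8.33 in d-NSC against 7.67 and 7.69 in p-NSC_LF. Neither gene's arrays overlapped. Txn1, Txn2, Txnrd3 and Txnip, the inhibitor of thioredoxin, were not called. Of the other thioredoxin-fold proteins Txndc17 and Txnl1 fell by 0.54 ± 0.12 and 0.54 ± 0.14, and Txndc5 and Txnl4b rose by 0.43 ± 0.11 and 0.49 ± 0.14.

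Sod2, the manganese dismutase of mitochondria, read 11.03 and 11.09 in d-NSC against 12.34 and 12.28 in p-NSC_LF and fell by 1.25 ± 0.12 (adjusted p = 1.7e-05 by limma). All 8 arrays outside d-NSC read at least 12.09 for Sod2. Cat read 11.56 and 11.47 in d-NSC against 12.20 and 12.27 in p-NSC_LF and fell by 0.72 ± 0.17 (adjusted p = 0.0070). Sod1, the cytosolic form, and Sod3, the extracellular one, differed by -0.30 ± 0.14 and 0.18 ± 0.10 and were not called.

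**Figure D3:**
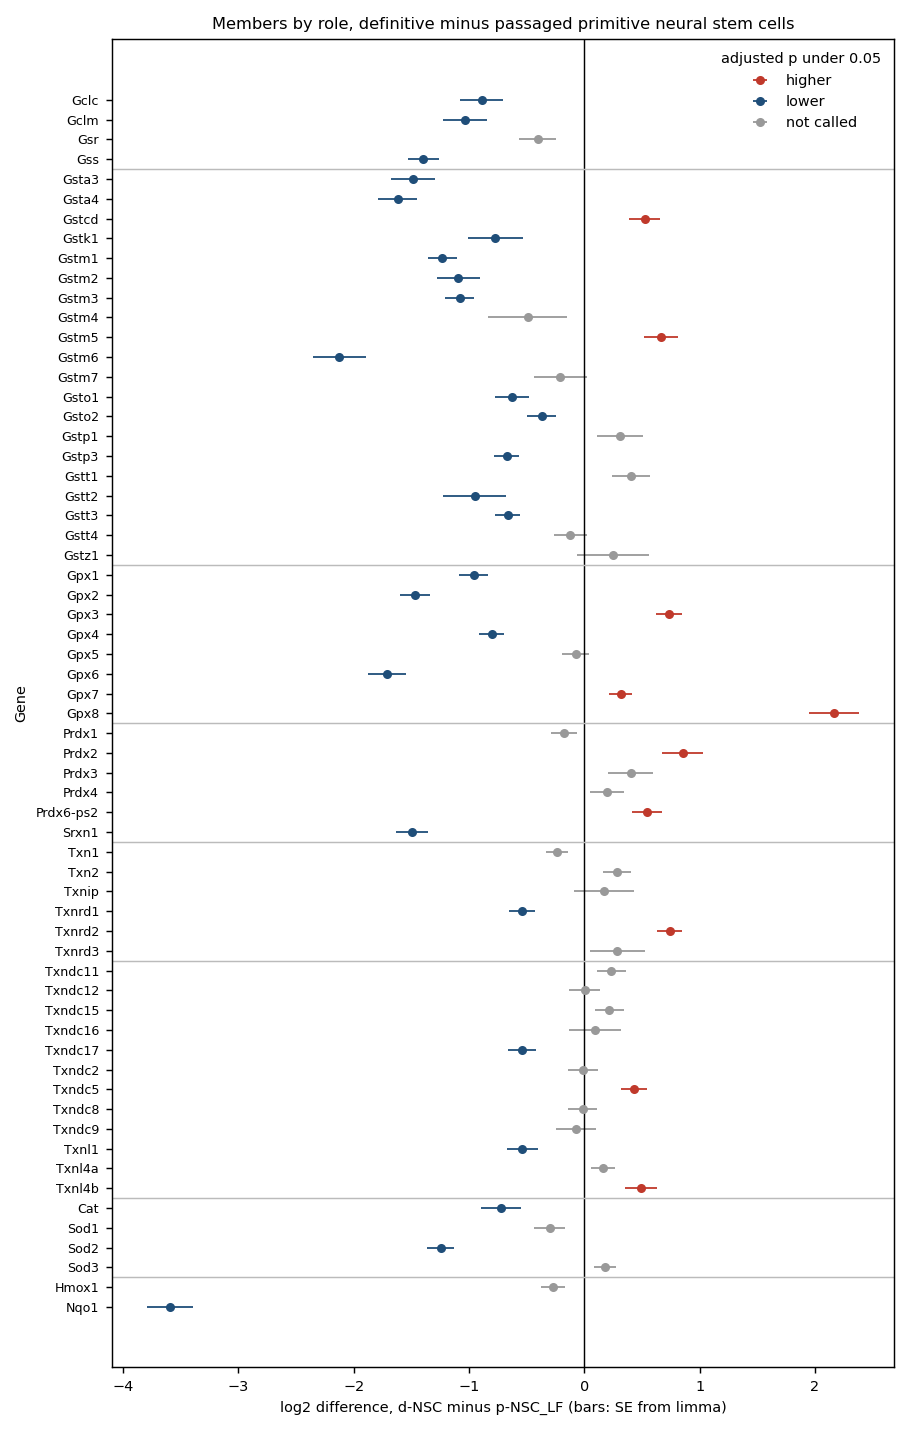
Log2 difference, d-NSC minus p-NSC_LF, for each of the 62 antioxidant genes by role, with bars for the SE from limma (2 arrays per culture) and colours for calls at an adjusted p under 0.05. Nqo1 lies furthest left at -3.59 and Gpx8 furthest right at 2.16.

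Of the 36 calls in this step 26 held in every setting tried. Those of Gstcd, Gsto2, Gstt2 and Gpx7 were lost without any 1 of the d-NSC or p-NSC_LF arrays, with adjusted p by limma from 0.058 to 0.064 for Gstcd (0.52 to 0.53), 0.074 to 0.22 for Gsto2 (-0.44 to -0.30), 0.069 to 0.085 for Gstt2 (-0.98 to -0.93) and 0.097 to 0.13 for Gpx7 (0.30 to 0.33). That of Gstk1 was lost without d-NSC replicate 1 or either p-NSC_LF array (-0.86 to -0.62, adjusted p 0.064 to 0.17). That of Cat was lost without d-NSC replicate 2 (-0.68, adjusted p = 0.052), and that of Prdx6-ps2 without d-NSC replicate 2 or p-NSC_LF replicate 1 (0.40 to 0.49, adjusted p 0.064 to 0.083). Txndc5 and Txnl4b lost theirs without d-NSC replicate 2 or p-NSC_LF replicate 2 (0.36 to 0.38 with adjusted p 0.090 to 0.099, and 0.38 to 0.41 with adjusted p 0.12 to 0.13), and Txnl1 without d-NSC replicate 1 or p-NSC_LF replicate 2 (-0.47 to -0.45, adjusted p 0.080 to 0.090).

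Genes outside the family that the literature places under Nrf2 fell in the same step. Of 19 such genes measured, 16 fell and 1 rose, or 89.5% called, where 19.3% of all genes fell and 19.3% rose. In the brighter 50% of genes 31.3% fell and 27.4% rose. The median difference of the list was -0.81, against -0.01 over all genes. The list was drawn up with earlier results of these arrays known. Ephx1, the microsomal epoxide hydrolase, read 7.06 and 7.19 in d-NSC against 9.90 and 9.85 in p-NSC_LF and fell by 2.75 ± 0.10 (adjusted p = 4.2e-08 by limma). The carbonyl reductase Cbr3 fell by 2.59 ± 0.25, the biliverdin reductase Blvrb by 1.52 ± 0.19, and the NADPH-producing enzymes Me1 and Idh1 by 1.26 ± 0.18 and 1.15 ± 0.09. The 1 that rose was Slc7a11, the cystine transporter that supplies the cysteine of glutathione, at 11.77 and 11.73 in d-NSC against 8.15 and 7.80 in p-NSC_LF (3.77 ± 0.28, adjusted p = 3.6e-06).

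Nrf2's own gene Nfe2l2 read 10.78 and 10.94 in d-NSC against 11.60 and 11.66 in p-NSC_LF and fell by 0.77 ± 0.19 (adjusted p = 0.0087 by limma). The call was lost without p-NSC_LF replicate 2 (-0.74, adjusted p = 0.051) or d-NSC replicate 1 (-0.69, adjusted p = 0.068). Keap1, its repressor, differed by -0.31 ± 0.11 (adjusted p = 0.054), and the repressor genes Bach1 and Bach2 by -0.36 ± 0.09 (0.011) and 1.49 ± 0.17 (6.0e-05). The call of Bach1 was lost without p-NSC_LF replicate 1 or either d-NSC array (-0.37 to -0.33, adjusted p 0.057 to 0.088). Nfe2l1, a relative of Nfe2l2, rose by 0.59 ± 0.10. Of the 10 genes of Nrf2 regulation 2 rose, 2 fell and 6 were not called.

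Cystine supply and glutathione turnover did not move one way, with 7 of 20 measured genes rising and 7 falling. That is 70.0% called, where 38.6% of all genes were. Chac1, which breaks glutathione down in the cytosol, read 12.28 and 12.20 in d-NSC against 10.21 and 10.11 in p-NSC_LF and rose by 2.08 ± 0.17 (adjusted p = 7.7e-06 by limma). Slc3a2, the partner chain of Slc7a11, rose by 0.67 ± 0.17, and Cbs, which opens the route from methionine to cysteine, fell by 2.34 ± 0.12. Glrx, a cytosolic glutaredoxin that strips glutathione off proteins, read 8.37 and 8.30 in d-NSC against 10.29 and 10.08 in p-NSC_LF and fell by 1.85 ± 0.11 (adjusted p = 9.5e-07). Of the 13 glutaredoxins and thiol repair genes 6 rose and 5 fell, or 84.6% called, against 38.6% of all genes.

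Of 20 genes of selenium supply and selenoproteins outside the family 6 rose and 7 fell, with Selenop, the secreted selenium carrier, higher by 2.30 ± 0.25 and Sephs2, which makes selenophosphate, lower by 1.59 ± 0.10 (adjusted p = 4.8e-05 and 8.4e-07 by limma). Of 14 genes of NADPH supply 3 rose and 7 fell, Aldh1l2 and Mthfd2 of the mitochondrial folate route upward by 2.60 ± 0.17 and 1.02 ± 0.11, and Aldh1l1 and Mthfd1 of the cytosolic one, which fell by 2.37 ± 0.20 and 1.46 ± 0.10. Of the NADPH genes, Pgd, Me1 and Idh1 are also counted among the Nrf2 targets above. Calls took 65.0% of the selenium list and 71.4% of the NADPH list, against 38.6% of all genes. Of 13 feeder fibroblast markers 8 rose and 1 fell, and of 11 endoderm markers 7 rose and 0 fell. Feeder fibroblast markers averaged 8.10 to 8.17 in d-NSC against 7.41 to 7.45 in p-NSC_LF, and endoderm markers 8.29 to 8.33 in d-NSC against 7.49 to 7.51 in p-NSC_LF. Of 8 neuron markers 7 rose and 1 fell, with a mean level of 9.48 to 9.51 in d-NSC against 8.04 to 8.08 in p-NSC_LF. Calls took 69.2% of the feeder markers, 63.6% of the endoderm markers and 100% of the neuron markers. Over all genes 19.3% rose and 19.3% fell. The part of other cells in these differences was not tested.

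**Figure D4:**
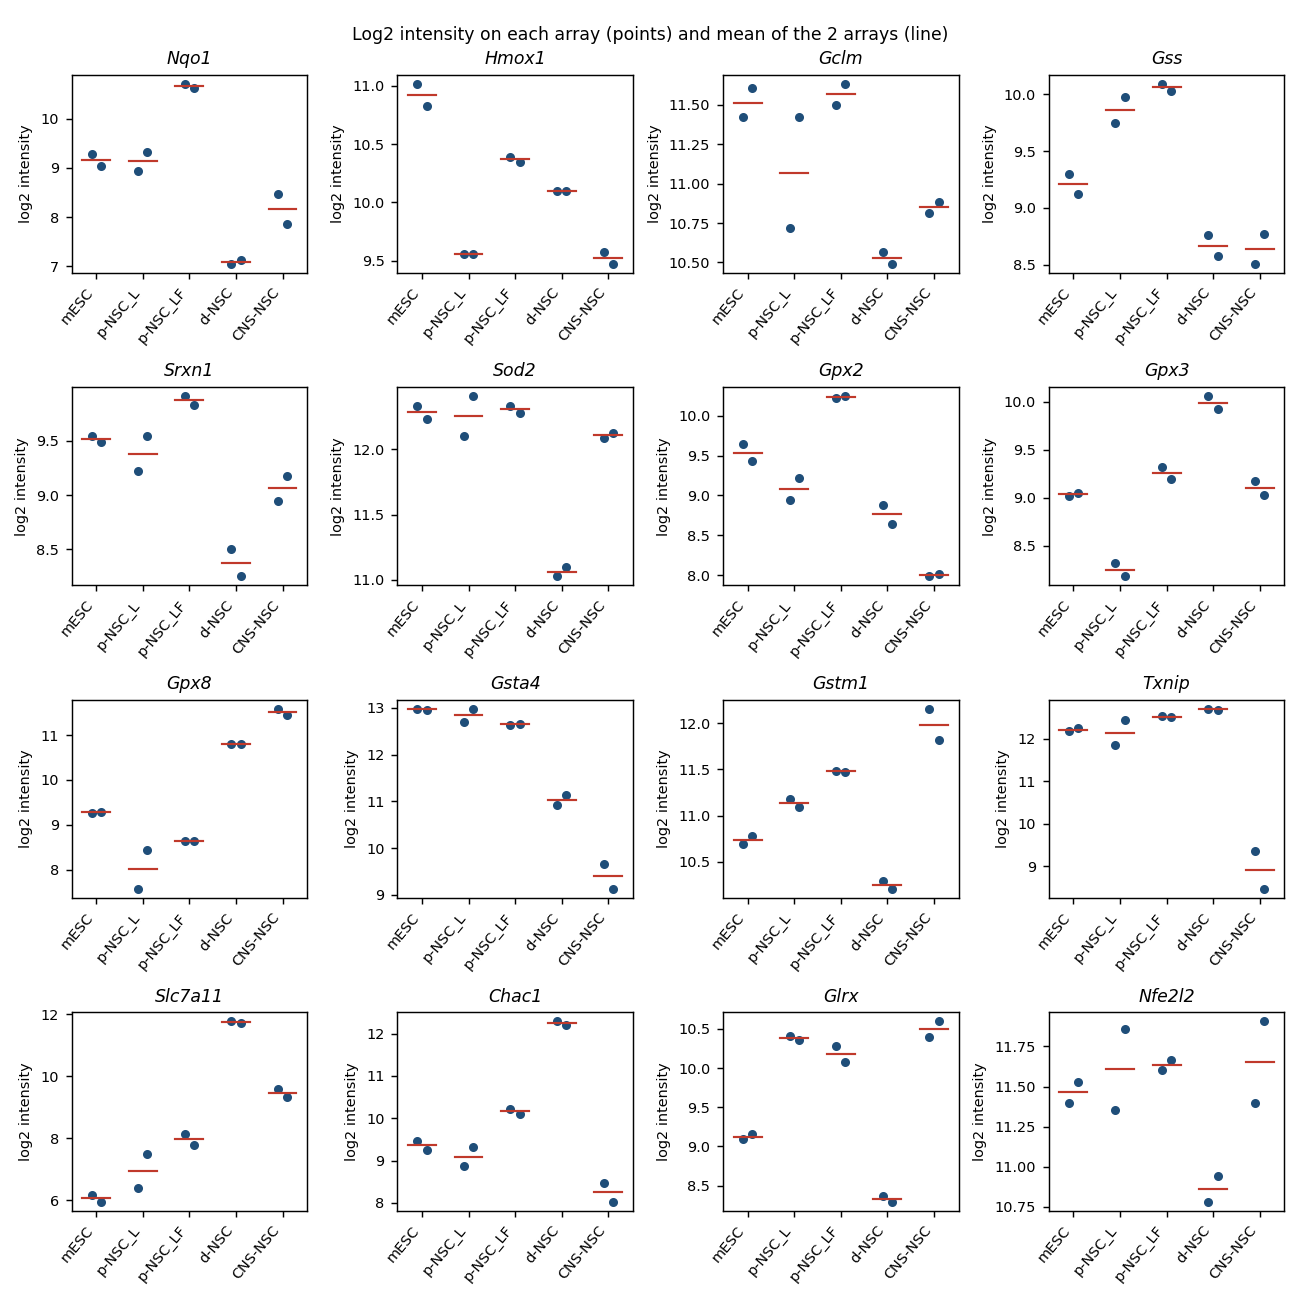
Log2 intensity (y axis, its own scale in each panel) of 12 antioxidant genes and of Slc7a11, Chac1, Glrx and Nfe2l2 in the 5 cultures, with 1 point per array and a line at the mean of 2 arrays. Nqo1 peaks at 10.64 to 10.72 in p-NSC_LF and is lowest at 7.05 to 7.12 in d-NSC, while Slc7a11 is highest at 11.73 to 11.77 in d-NSC.

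The fourth comparison set d-NSC, made from ES cells, against CNS-NSC, taken from embryonic brain. Both were grown in the same EGF, FGF and heparin, but d-NSC had N2 and B27 where CNS-NSC had N2. Supplement, strain and origin differed together, and their parts cannot be told apart. In the antioxidant genes 10 rose and 20 fell in d-NSC, or 16.1% and 32.3%, against backgrounds of 17.6% and 16.5% (34.0% in all). The largest difference of the whole set was Txnip, which was far higher in d-NSC, and the transferases parted in both directions. Sod2, Nqo1 and Srxn1 were lower in d-NSC. Among the 48 antioxidant genes in the brighter 50% of genes 22.9% were higher and 37.5% lower by limma, against 27.7% and 25.8% of those genes.

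Txnip binds thioredoxin and limits glucose uptake. It read 12.71 and 12.68 in d-NSC against 9.36 and 8.47 in CNS-NSC, which is 13.7-fold (3.78 ± 0.26, adjusted p = 1.9e-06 by limma). The mESC and primitive arrays read between 11.85 and 12.53, so both CNS-NSC arrays lay below the other 8. Txn1 fell in d-NSC by 0.41 ± 0.10 and Txnrd1 by 0.36 ± 0.11.

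Of the 20 transferases 5 rose and 6 fell in d-NSC against CNS-NSC, or 55.0% called, against 34.0% of all genes. Gsta4 read 10.92 and 11.13 in d-NSC against 9.66 and 9.13 in CNS-NSC and was higher by 1.63 ± 0.17 (adjusted p = 4.1e-05 by limma). Gstm2 was higher by 1.12 ± 0.19, Gstm4 by 1.44 ± 0.34 and Gstt2 by 1.25 ± 0.27. The CNS-NSC arrays read 8.94 and 7.60 for Gstm4 and 7.30 and 6.52 for Gstt2, so they were far apart in both. Gstm1 read 10.29 and 10.20 in d-NSC against 12.16 and 11.81 in CNS-NSC and fell by 1.74 ± 0.12 (adjusted p = 2.6e-06). The differences of the other transferases that fell were -1.16 ± 0.15 for Gstm5, -1.02 ± 0.23 for Gstm7, -0.88 ± 0.23 for Gstm6 and -0.80 ± 0.17 for Gstt1. Gstm3 fell by 0.47 ± 0.13 on its brighter probe set and higher by 1.08 on the other, and the mean of both gave 0.31 with an adjusted p of 0.15 by limma, so its direction is uncertain. Mgst1, a membrane-bound transferase outside the family, fell by 2.61 ± 0.16.

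**Figure D5:**
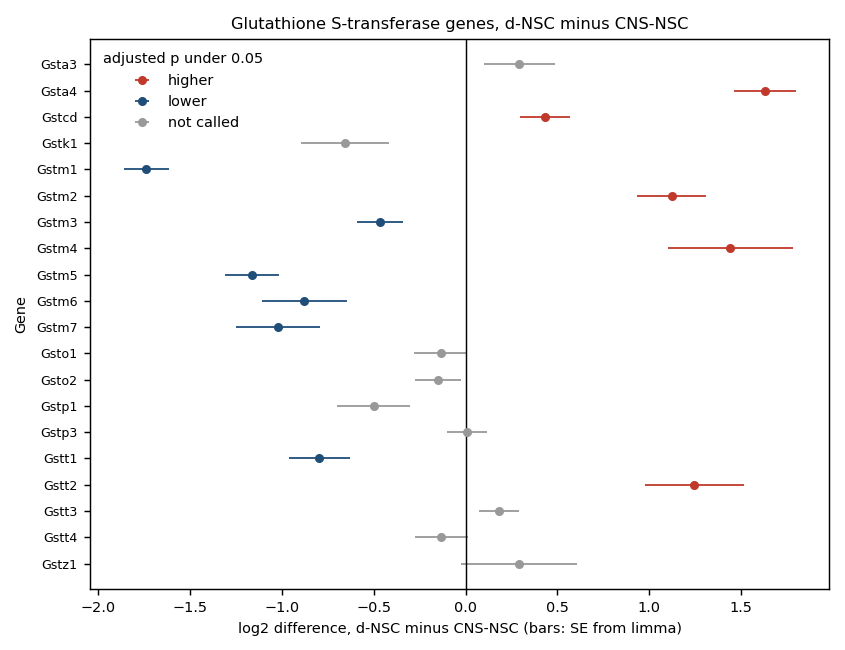
Log2 difference, d-NSC minus CNS-NSC, of the 20 glutathione S-transferase genes, with bars for the SE from limma (2 arrays per culture) and colours for calls at an adjusted p under 0.05. Gsta4 lies furthest right at 1.63 and Gstm1 furthest left at -1.74.

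Of the peroxidases Gpx3 was higher in d-NSC by 0.89 ± 0.11 (adjusted p = 0.00013 by limma), Gpx2 by 0.76 ± 0.13 (0.0012) and Gpx4 by 0.42 ± 0.11 (0.012), and Gpx8 fell by 0.71 ± 0.22 (0.028). Gpx8 read 10.79 and 10.81 in d-NSC against 11.58 and 11.44 in CNS-NSC, both far above the 7.57 to 9.28 of the ES and primitive arrays. Sod2 read 11.03 and 11.09 in d-NSC against 12.09 and 12.13 in CNS-NSC and fell by 1.05 ± 0.12 (adjusted p = 6.8e-05). Cat and Sod3 fell by 0.63 ± 0.17 and 0.39 ± 0.10.

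Nqo1 read 7.05 and 7.12 in d-NSC against 8.47 and 7.87 in CNS-NSC and fell by 1.08 ± 0.20 (adjusted p = 0.0017 by limma), while Hmox1 was higher by 0.57 ± 0.10 (0.0016). Srxn1 fell by 0.68 ± 0.14, and Gclc, at 10.61 and 10.67 in d-NSC against 11.07 and 11.35 in CNS-NSC, by 0.57 ± 0.19 (adjusted p = 0.037). Gss, Gclm and Gsr differed by 0.03 ± 0.13, -0.32 ± 0.19 and 0.31 ± 0.16 and were not called. None of the measured peroxiredoxins was called, Prdx5 and Prdx6 not being among them. Of the thioredoxin-fold proteins Txndc16 fell by 1.13 ± 0.23, the sperm thioredoxin Txndc2 by 0.68 ± 0.13, Txndc15 by 0.52 ± 0.13, Txnl1 by 0.49 ± 0.14 and Txndc17 by 0.48 ± 0.12.

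Of the 30 calls 16 held in every setting tried. Without d-NSC replicate 1 the count was 17, with 7 higher and 10 lower, and over all genes 4684 in place of 6783. Without d-NSC replicate 2 it was 20, and over all genes 4787. The calls of Gstm4 (1.39, adjusted p = 0.053 by limma), Cat, Gclc, Gpx4, Gpx8, Gstcd, Gstm3, Gstm6, Sod3, Txndc15, Txndc17, Txnl1 and Txnrd1 were lost without that array. Without d-NSC replicate 2 the call of Txn1 was lost (-0.36, adjusted p = 0.073), as were those of Cat, Gclc, Gpx4, Gpx8, Gstcd, Gstm3, Sod3, Txndc17 and Txnrd1. Leaving out a CNS-NSC array also took the calls of Cat, Gpx4, Gstcd, Gstm3, Gstm6 and Txndc15 (replicate 1), of Gclc, Sod3, Txndc17 and Txnl1 (replicate 2), and of Gpx8 and Txnrd1 (either). Over these arrays the differences ran from -0.68 to -0.58 for Cat, -0.60 to -0.43 for Gclc, -0.78 to -0.64 for Gpx8, -0.75 to -0.45 for Gstm6 and 0.20 to 0.44 for Gstcd, whose call was lost also without either mESC or p-NSC_LF array, as was that of Gclc, and that of Txnrd1 without either p-NSC_LF array. They ran from 0.35 to 0.43 for Gpx4, -0.47 to -0.45 for Gstm3, -0.40 to -0.34 for Sod3, -0.42 to -0.40 for Txndc15, -0.50 to -0.36 for Txndc17, -0.40 to -0.37 for Txnl1 and -0.39 to -0.33 for Txnrd1.

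Around the family, 9 of 20 measured genes of cystine supply and glutathione turnover rose in d-NSC against CNS-NSC and 5 fell. Cth, the last enzyme of the route from methionine to cysteine, read 12.38 and 12.40 in d-NSC against 8.63 and 8.87 in CNS-NSC (3.64 ± 0.12, adjusted p = 2.0e-08 by limma). Chac1 was higher by 3.99 ± 0.17 and Slc7a11 by 2.27 ± 0.28. Of 19 Nrf2 targets outside the family 4 rose and 9 fell, Ephx1 by 5.09 ± 0.10, and of 20 selenium genes 3 rose and 10 fell. Calls took 70.0% of the cystine list, 68.4% of the Nrf2 targets and 65.0% of the selenium genes, against 34.0% of all genes. Markers of astrocytes and the oligodendrocyte lineage averaged 7.5 to 7.59 in d-NSC against 9.13 to 9.75 in CNS-NSC, ES cell markers 10.05 to 10.10 in d-NSC against 7.07 to 7.12 in CNS-NSC, and feeder fibroblast markers 8.10 to 8.17 in d-NSC against 7.27 to 7.28 in CNS-NSC. Of 11 endoderm markers 8 rose and 0 fell, with a mean level of 8.29 to 8.33 in d-NSC against 7.39 to 7.48 in CNS-NSC. Of 8 neuron markers 4 rose and 2 fell, with a mean level of 9.48 to 9.51 in d-NSC against 8.49 to 9.10 in CNS-NSC. Calls took 72.7% of the endoderm markers and 75.0% of the neuron markers, against 34.0% of all genes. What part such cells have in these differences was not tested.

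In the last comparison, d-NSC against mESC, 8 antioxidant genes rose and 22 fell, or 12.9% and 35.5%. The backgrounds were 20.7% and 19.9% (40.5% in all). In the brighter 50% of genes 18.8% of antioxidant genes rose and 35.4% fell, against 27.7% and 32.4% of those genes. This comparison shares arrays with those above. The largest falls were in Nqo1 (2.07 ± 0.20, adjusted p = 1.9e-05 by limma), Gsta4 (1.94 ± 0.17), Gsta3 (1.81 ± 0.19), Gstp3 (adjusted p = 2.8e-06) and Gpx6 (1.39 ± 0.16). For Gsta3 (6.23 and 6.47), Gstp3 (6.48 and 6.62) and Gpx6 (6.48 and 6.37) d-NSC lay near the lower quartile of the arrays. The sizes of these falls are uncertain. Sod2 fell by 1.23 ± 0.12, Srxn1 by 1.14 ± 0.14, Gclm by 0.98 ± 0.19 and Gpx4 by 0.94 ± 0.11. Gpx8 rose by 1.52 ± 0.22 (adjusted p = 0.00029), Gstm5 by 1.08 ± 0.15, Gpx3 by 0.95 ± 0.11 and Txnrd2 by 0.84 ± 0.11. Gclc, at 10.61 and 10.67 in d-NSC and 11.08 and 11.14 in mESC, differed by -0.47 ± 0.19 and was not called (adjusted p = 0.068).

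Outside the family 1 of 19 Nrf2 targets rose and 10 fell over the whole course, and of 20 genes of cystine supply and glutathione turnover 6 rose and 6 fell. Slc7a11, the cystine transporter, read 11.77 and 11.73 in d-NSC against 6.18 and 5.96 in mESC and rose by 5.68 ± 0.28 (adjusted p = 2.8e-07 by limma), with mESC below the lower quartile of the arrays.

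In this last comparison 20 of the 30 calls held in every setting tried. That of Prdx2, which rose by 0.50 ± 0.18, rested on an adjusted p of 0.050 by limma, just under the threshold, and was lost without mESC replicate 2 or any 1 of the d-NSC and p-NSC_LF arrays (0.31 to 0.51, adjusted p 0.050 to 0.31). Gstz1 (0.91 to 1.00, adjusted p 0.10 to 0.13) and Gstm6 (-0.83 to -0.57, adjusted p 0.062 to 0.19) lost theirs without any 1 of the d-NSC or mESC arrays. Without mESC replicate 1 those of Gpx1 (-0.32), Gss (-0.46), Gstt1 (-0.59), Sod1 (-0.43) and Txnl1 (-0.48) were lost, and without mESC replicate 2 that of Gstm1 (-0.45), at adjusted p 0.063 to 0.11. Without d-NSC replicate 1 those of Gpx1 (-0.42), Prdx1 (-0.42) and Txnl1 (-0.45) were lost, and without d-NSC replicate 2 those of Gss (-0.45), Gstm1 (-0.44) and Sod1 (-0.50), at adjusted p 0.062 to 0.088.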

How the data were processed

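Gene expression was measured on 1 Affymetrix array for each of 2 replicates of 5 cultures, 10 arrays in all. The deposited values are log2 intensities per probe set, made by the authors with RMA in Partek per the submitters' processing notes; versions and genome build are not given in the sources used here. Of 35556 probe sets, 21789 have 1 gene symbol in the platform annotation, 1621 have several and 12146 have none, and of the first 21698 matched RefSeq by gene number. The probe set with the highest mean stood for each of 19938 genes. The 6 probe sets that name several genes including members (Gstp1 with Gstp2, Gsta1 with Gsta2 and others) were not used. No values were further normalized. Differences were fitted with limma 3.58.1 in R 4.3.3, with 1 mean per culture over all 10 arrays, 5 residual and 4.90 prior degrees of freedom, and p-values were adjusted by Benjamini-Hochberg over all genes at 0.05. The labels call the replicates biological. Only 2 arrays per culture limit the precision, the median SE of a difference being 0.13. The fit was also run on simulated data, and the outcome is not given here. The gene family and the lists were chosen with earlier results of these data known, although the rule for members reads symbols only. Genes named in detail were, per comparison, up to 8 called members with the largest rise and 8 with the largest fall whose arrays did not overlap and whose higher mean was at or above the median gene (8.10), together with landmark genes and up to 2 rising and 2 falling called genes of each further list. Other members and list genes are named to account for them and were chosen after their values were seen. Alternatives were quantile normalization, leaving out the dimmer 50% of genes, a trended prior, a replicate block, averaging a gene over its probe sets, a fit of only the 2 cultures compared, and leaving out each array. Promoters came from RefSeq (GRCm38.p6). Tables and figures used Python 3.11.15, pandas 2.3.3 and matplotlib 3.10.9.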

Additional observations from a re-analysis of the deposited data

How the results depend on the processing

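Counts of calls in the comparisons with p-NSC_L depended most on single arrays. In p-NSC_L against mESC, 11 antioxidant genes and 2662 of all genes were called, and leaving out 1 array gave 6 to 19 and 1102 to 3290. In p-NSC_LF against p-NSC_L, the counts were 5 and 355, and leaving out 1 array gave 2 to 18 and 48 to 826. A fit of only the 2 cultures compared called 1480 and 99 of all genes in these steps, with fewer arrays to estimate the spread. Of the calls among all genes in p-NSC_LF against p-NSC_L 62.0% were higher, 75.8% with only the 2 cultures, 49.5% without p-NSC_L replicate 1, 73.2% without p-NSC_L replicate 2, 79.2% without p-NSC_LF replicate 1 and 82.9% without p-NSC_LF replicate 2. In d-NSC against CNS-NSC, 30 antioxidant genes were called, and 17 to 35 on leaving out 1 array. For d-NSC against p-NSC_LF 36 were called, and 28 to 39 on leaving out 1 array. For d-NSC against mESC these counts were 30 and 23 to 34, and for the F-test 54 and 47 to 56. A fit of only the 2 cultures compared called 46 in d-NSC against p-NSC_LF and 40 in d-NSC against mESC. For all of these every setting stayed within 1.5 times the count. With the replicate block 12, 5, 39, 32 and 31 antioxidant genes were called in the order of the report. The block lost Gpx2 (adjusted p = 0.052 by limma) and gained Gstp1 and Gstm1 in p-NSC_L against mESC, and gained Gstt1, Gsr and Sod1 in d-NSC against p-NSC_LF, Gstp1 and Sod1 in d-NSC against CNS-NSC, and Gclc in d-NSC against mESC. Deviations of same-numbered arrays correlated at 0.14 to 0.38 in the 6 pairs of cultures without d-NSC and at -0.11 to 0.09 in the 4 with it. The labels do not tie the numbers to a shared batch and not every pair exceeded 0.1, so the numbers were not taken to pair the samples. For single genes, 140 of the values from leaving out 1 array lost a call and 37 gained one, while 14 and 23 did so in the other settings. Gpx7 in d-NSC against p-NSC_LF also lost its call under quantile normalization (0.23, adjusted p = 0.088 by limma). Averaging probe sets turned the sign of Gstm3 in d-NSC against CNS-NSC (0.31, adjusted p = 0.15). The causes were not tested. With 2 arrays per culture small differences cannot be resolved, and genes near the lower quartile of intensity have uncertain sizes.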
